A study of Sus scrofa with 16 samples.

Results

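Glucose metabolism was read in the liver and colonic mucosa of pigs from 9 genes: PCK1, PCK2, G6PC, FBP1 and PC, which make glucose, HK2, which starts its breakdown, and SLC2A1, SLC2A2 and SLC5A1, which carry it across membranes. Every non-control probe whose gene name was one of these, or whose description held the symbol in brackets, was taken. This gave 23 of the 43603 probes on the array: 5 for PCK1, 3 for PCK2, 1 for G6PC, 3 for FBP1, 3 for PC, 1 for HK2, 1 for SLC2A1, 1 for SLC2A2 and 5 for SLC5A1. For each gene, the probe with the highest mean over all arrays (the brightest probe) is described in full, and the others beside it.

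The pigs were Duroc × Landrace × Large White barrows, sampled at 170 d of age after 100 d on 1 of 2 diets. Both diets were based on corn and soybean. The CS diet held purified corn starch, at 230 g/kg up to an age of 120 d and at 280 g/kg from then on, and the RPS diet held the same amounts of raw potato starch, a starch that largely escapes digestion in the small intestine. Feed had been withheld before slaughter, and the mucosa had been scraped from the proximal colon. Each of the 4 groups (liver CS, liver RPS, colon CS and colon RPS) held 4 pigs, with 1 one-colour Agilent array per pig. The labels do not say whether the liver and colon arrays of a diet came from the same pigs. The 4 arrays of a group shared 1 slide and 1 scan that no other group used. Neither diet nor tissue can therefore be told apart from slide and scan in any comparison below. The question for these genes was whether liver or colon read glucose genes differently when less of the starch is absorbed as glucose.

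Gluconeogenesis runs largely opposite to glycolysis. Pyruvate carboxylase (PC) turns pyruvate into oxaloacetate, phosphoenolpyruvate carboxykinase (cytosolic PCK1 and mitochondrial PCK2) turns oxaloacetate into phosphoenolpyruvate, fructose-bisphosphatase (FBP1) removes a phosphate further along the path, and glucose-6-phosphatase (G6PC) releases free glucose. In the liver, glucose crosses the cell membrane through the transporter GLUT2 (SLC2A2), and transcription of PCK1 and G6PC is known to be raised by glucagon and lowered by insulin. Intestinal epithelium takes up luminal glucose by sodium-coupled SGLT1 (SLC5A1), GLUT1 (SLC2A1) supplies basal uptake in many cell types, and hexokinase II (HK2) phosphorylates glucose mostly outside the liver.

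The probes are 60 bases long. Their letters are those of the array's own annotation. Of the 7 shown, those of G6PC, SLC2A2 and SLC5A1 are the brightest probes of the genes with the largest tissue differences, toward liver or toward colon. Those of FBP1 and PC carry results below that differ from probe to probe. PCK1 and PCK2 are shown first because they encode related enzymes whose transcripts could be mistaken for each other. Bases that are identical when these probes are aligned are in capitals.
PCK1 probe A_72_P441080: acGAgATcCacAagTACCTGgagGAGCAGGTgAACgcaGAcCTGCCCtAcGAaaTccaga
PCK2 probe A_72_P607328: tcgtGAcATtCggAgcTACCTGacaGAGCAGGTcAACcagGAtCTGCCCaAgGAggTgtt
G6PC probe A_72_P440076: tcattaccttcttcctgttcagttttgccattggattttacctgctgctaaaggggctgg
FBP1 probe A_72_P441089: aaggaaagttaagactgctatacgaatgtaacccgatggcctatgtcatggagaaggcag
PC probe A_72_P303224: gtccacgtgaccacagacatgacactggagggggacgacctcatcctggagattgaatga
SLC2A2 probe A_72_P077641: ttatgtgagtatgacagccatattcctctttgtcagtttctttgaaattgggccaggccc
SLC5A1 probe A_72_P444300: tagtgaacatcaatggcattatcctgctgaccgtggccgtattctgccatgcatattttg
The PCK1 and PCK2 probes shared 35 of 58 aligned bases. No other pair of probes from different genes among the 23 shared more than 28 of 58. The other 4 PCK1 probes lie further along the transcript, and 3 of them start at transcript positions 2458, 2460 and 2499. By these annotated starts and their length they overlap, as do the SLC5A1 probes that start at 3500 and 3545. Such probes were not taken as independent readings of a gene. In sequence, the PCK1 probes at 2460 and 2499 shared 22 identical bases. For the other pairs the overlap rests on the annotated starts alone.

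Signal well above background was found for 61.1% to 65.9% of the spots on a liver array and for 64.9% to 72.2% on a colon array, with 3 to 27 spots per array marked as outliers and none of them a probe of the 9 genes. Array medians were higher in colon CS (56.3 to 70.8) than in colon RPS (34.2 to 42.5), before normalization. Marker genes followed the tissue labels: of 10 hepatocyte genes measured, 10 were higher in liver, and of 12 genes of colonic epithelium, 12 were higher in colon. The hepatocyte genes TTR, FGA and FGG were well above background on 0 of 8 colon arrays, and the epithelial genes CDX2, KRT20 and SLC26A3 on 0 of 8 liver arrays. The number of arrays, 4 per group, limits the precision of every value.

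Colon and liver differed at all 23 probes. PCK1, PCK2, G6PC, FBP1, PC and SLC2A2 were higher in liver at each of their 16 probes, and SLC5A1, SLC2A1 and HK2 were higher in colon at each of their 7 probes (limma, adjusted p below 0.05 and fold above 1.5). Over the whole array, 18.7% of the probes were higher in liver and 23.4% higher in colon by this rule. The median difference of the 23 probes was -3.25 on the log2 scale (colon minus liver), against 0.01 over all probes. Levels below are log2 signals with all 16 arrays normalized together, given as mean ± SD of 4 arrays. A tissue holds many cell types, and in such bulk samples fewer cells of a type and less RNA per cell cannot be told apart.

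**Figure D1:**
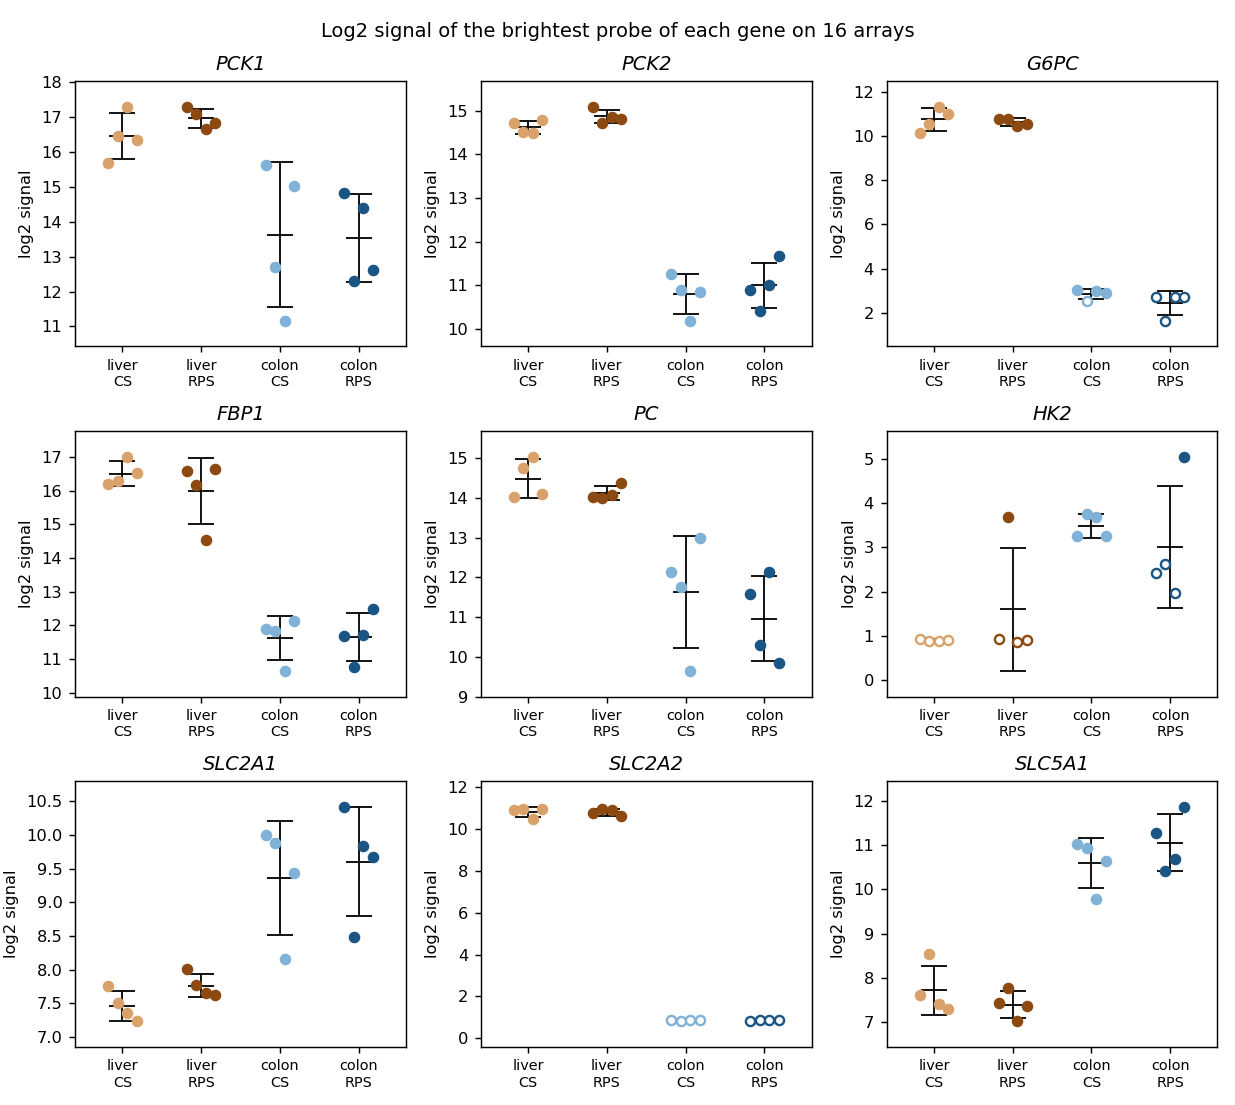
Log2 signal of the brightest probe of each of the 9 genes (y axis) in the 4 groups (x axis), with 16 arrays normalized together. Points are arrays, filled where the spot was well above background and open where it was not, and bars are the mean ± SD of 4 arrays. SLC2A2 was above background on 0 of 8 colon arrays, and colonic PCK1 ranged from 11.16 to 15.62.

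The 2 phosphoenolpyruvate carboxykinases were both much higher in liver. PCK2 was at 14.62 ± 0.15 in liver CS and 14.87 ± 0.16 in liver RPS, and at 10.80 ± 0.45 in colon CS and 10.99 ± 0.52 in colon RPS. Its difference of -3.85 ± 0.18 (SE) is 14.4-fold, with an adjusted p of 2.18e-10 (limma). PCK1 was at 16.44 ± 0.66 in liver CS and 16.96 ± 0.28 in liver RPS, and at 13.62 ± 2.07 in colon CS and 13.53 ± 1.26 in colon RPS. The difference of -3.13 ± 0.59 is 8.73-fold (adjusted p = 4.48e-04). Colon CS replicate 1, at 15.62, was just below the lowest liver array, at 15.69, so the 2 tissues did not overlap at this probe. At PCK1 probe A_72_P098696 they did, with the highest colon array at 15.115 and the lowest liver array at 15.106.

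The steps on either side of PCK1 differed as well. G6PC, the last step of glucose release, was at 10.77 ± 0.51 in liver CS and 10.65 ± 0.16 in liver RPS, and its spot was well above background on all 8 liver arrays but on 3 of 8 colon arrays, all of them CS, at 2.88 to 3.02. Its measured difference was -8.07 ± 0.19 (adjusted p = 1.20e-13), a size that rests on colon spots mostly not above background: with the normexp background correction it was -4.27, or 19.3-fold, instead of 269-fold. FBP1 was 24.2-fold higher in liver at its brightest probe (-4.60 ± 0.34, adjusted p = 3.85e-08), and its 3 probes ran from -5.30 to -4.60. PC was 8.03-fold higher in liver (-3.00 ± 0.44, adjusted p = 4.25e-05), with its 3 probes between -3.73 and -3.00.

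The transporters split by tissue. SLC2A2 was at 10.81 ± 0.23 in liver CS and 10.80 ± 0.16 in liver RPS and was not well above background on any of 8 colon arrays. The measured difference was -9.94 (limma, adjusted p = 6.79e-19), from colon values not above background. Against the lowest signal that counted as above background on each colon array, SLC2A2 was at least 264-fold higher in liver, a bound that was not itself tested. That bound holds for the signals as scanned, and with normexp, which adds an offset of 50 to every signal, the measured difference was -4.72, or 26.3-fold (adjusted p = 1.11e-15). SLC5A1, in contrast, was at 10.60 ± 0.56 in colon CS and 11.05 ± 0.64 in colon RPS, and at 7.72 ± 0.56 in liver CS and 7.39 ± 0.31 in liver RPS. It was 9.65-fold higher in colon (3.27 ± 0.25, adjusted p = 7.08e-08), and its 5 probes lay between 2.99 and 3.59. The 2.99 came from probe A_72_P488671, which was well above background on 3 of 8 liver arrays. SLC2A1 was 3.66-fold higher in colon (1.87 ± 0.29, adjusted p = 6.50e-05), with 7.46 ± 0.22 in liver CS, 7.76 ± 0.18 in liver RPS, 9.36 ± 0.84 in colon CS and 9.61 ± 0.81 in colon RPS.

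HK2 had the highest adjusted p of the 9 genes. It was well above background on 5 of 8 colon arrays and on 1 of 8 liver arrays (RPS replicate 2, at 3.69). The measured difference was 2.01 ± 0.47 (adjusted p = 0.00222), or 4.02-fold, against liver spots of which 7 of 8 were not above background, and with normexp it was 0.23, or 1.17-fold (adjusted p = 0.0274). Within the CS diet the difference was 2.59 (adjusted p = 0.00578), but within the RPS diet it was 1.42 (adjusted p = 0.103), so HK2 missed the threshold there, whereas the other 22 probes passed it in both diets. The difference between the diets in this tissue difference was itself not past the threshold for HK2 (-1.17 ± 0.93, adjusted p = 0.999).

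For each of the 9 genes, the CS and RPS groups of a tissue were neighbours in the order of mean levels and no difference between them passed the thresholds below, while colon and liver differed within each diet, apart from HK2 within RPS. In liver the order was RPS above CS for PCK1, PCK2, SLC2A1 and HK2, and CS above RPS for the other 5 genes.

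**Figure D2:**
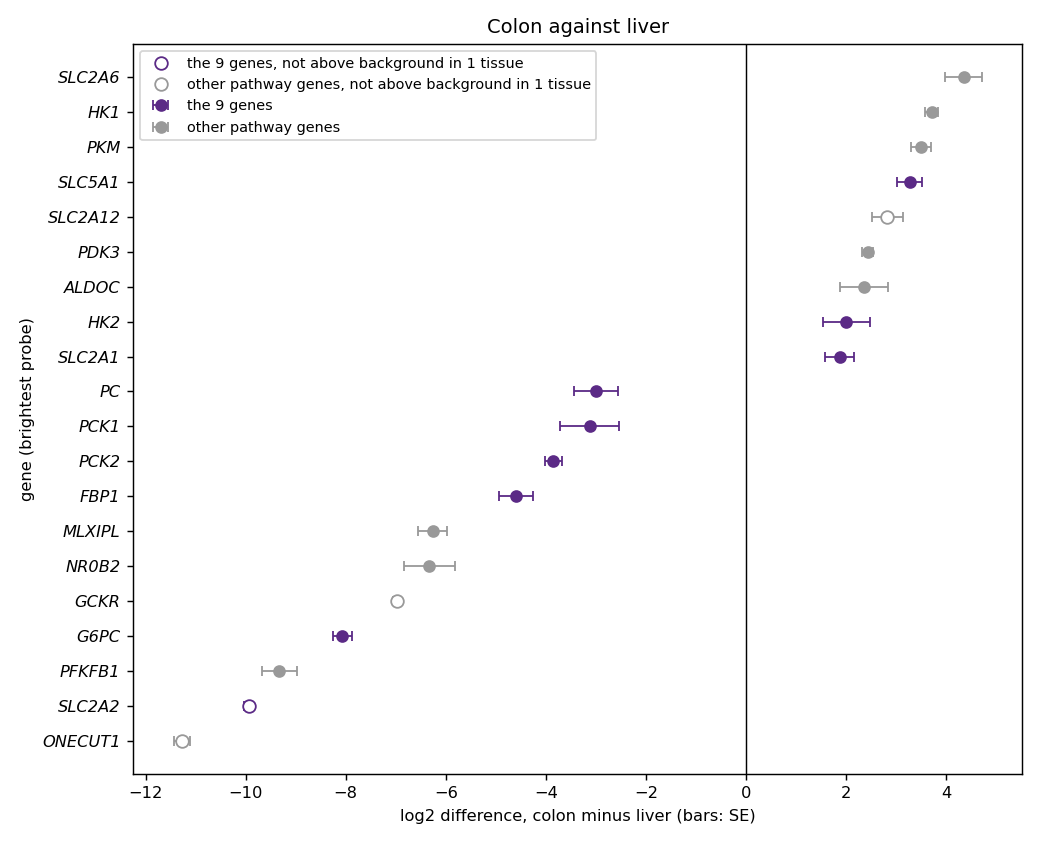
Log2 difference between colon and liver (x axis, colon minus liver) for the brightest probe of each gene (y axis), in purple for the 9 genes and in grey for other pathway genes with large differences. Bars are the SE of the limma fit, and open circles mark measured differences of genes well above background on 0 of 8 arrays of 1 tissue. The 6 genes of glucose production and export lie left of 0 and SLC5A1, SLC2A1 and HK2 lie right of it.

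Other genes of the same pathways, from 8 lists with 87 measured genes of 141 listed and 1 probe each, were split between the tissues, with 38 higher in liver, 28 higher in colon and 21 that did not pass. Of all 7059 genes with a symbol, 21.9% were higher in liver and 29.6% higher in colon. Among the 9 other genes of gluconeogenesis, 6 were higher in liver and 0 in colon, with a median difference of -1.47, and SLC37A4, the carrier of glucose-6-phosphate into the endoplasmic reticulum, differed by 0.11 (adjusted p = 0.268). Of 15 glycolytic genes, 9 were higher in colon and 2 in liver, with a median of 0.71. All 4 pentose phosphate genes were higher in colon (median 1.22), and 7 of 12 glycogen genes and 14 of 22 regulators were higher in liver. The median over all 7059 genes was 0.10.

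Large differences toward liver were read for ONECUT1, a hepatic transcription factor (at least 1322-fold), PFKFB1, the hepatic form of the enzyme that makes and removes fructose 2,6-bisphosphate (measured difference -9.33, with 1 of 8 colon arrays above background), GCKR, the inhibitor of glucokinase (at least 38.9-fold), NR0B2, a nuclear receptor that represses transcription (measured difference -6.33, with 3 of 8 colon arrays above background), and MLXIPL, a transcription factor that responds to glucose (-6.27). The sizes for PFKFB1 and NR0B2 rest on colon spots mostly not above background. The largest differences toward colon came from the transporter SLC2A6 (4.35), the hexokinase HK1 (3.72), the pyruvate kinase PKM (11.3-fold), the transporter SLC2A12 (at least 4.07-fold, above background on 0 of 8 liver arrays), the pyruvate dehydrogenase kinase PDK3 (2.43) and the aldolase ALDOC (2.36).

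Diet was then compared within each tissue, as RPS minus CS, with the 8 arrays of that tissue normalized together. Following the study's thresholds, a probe was called at an unadjusted p below 0.05 and a fold above 1.5, and Benjamini-Hochberg adjusted p-values over all probes are given beside it. For single probes an exact permutation test of the group means (two-sided) was added, in which 4 against 4 arrays can reach no p below 0.0286.

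In liver, 0 of the 23 probes were called, whereas 3.56% of all probes were. None of the 23 had an unadjusted p below 0.05 in limma or was called by the methods' t-test. By adjusted p, 0 of 23 passed, against 0.00229% of all probes (1 probe). The CS and RPS values overlapped for every one of the 23, while 4.45% of all probes had groups that did not overlap. The median difference was -0.10, against -0.00 over all probes.

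PCK1 had a higher mean in RPS livers but did not pass the thresholds. Its brightest probe read 15.74, 16.46, 17.26 and 16.35 on the 4 CS arrays and 17.25, 17.07, 16.67 and 16.81 on the 4 RPS arrays. The RPS livers lay close together and above 3 of the 4 CS livers, and CS replicate 3 was the highest of the 8. The difference was 0.50 ± 0.31 (SE), with a 95% confidence interval of -0.23 to 1.23, or 1.41-fold (limma, adjusted p = 0.775, exact permutation p = 0.2). All 5 PCK1 probes were higher with RPS, by 0.50 to 0.74. Without CS replicate 3 the brightest probe differed by 0.77 (adjusted p = 0.594) and all 5 probes were called at the unadjusted threshold. Without CS replicate 1 it differed by 0.27 and was not called.

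PCK2 lay within a narrow range in liver. Its brightest probe read 14.77, 14.58, 14.55 and 14.86 with CS and 15.16, 14.79, 14.92 and 14.88 with RPS. The RPS values lay toward the top, with overlap between 14.79 and 14.86. The difference was 0.25 ± 0.12 (95% confidence interval -0.02 to 0.52, adjusted p = 0.692, exact permutation p = 0.0571). The other 2 probes were also higher with RPS, by 0.18 and 0.23.

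**Figure D3:**
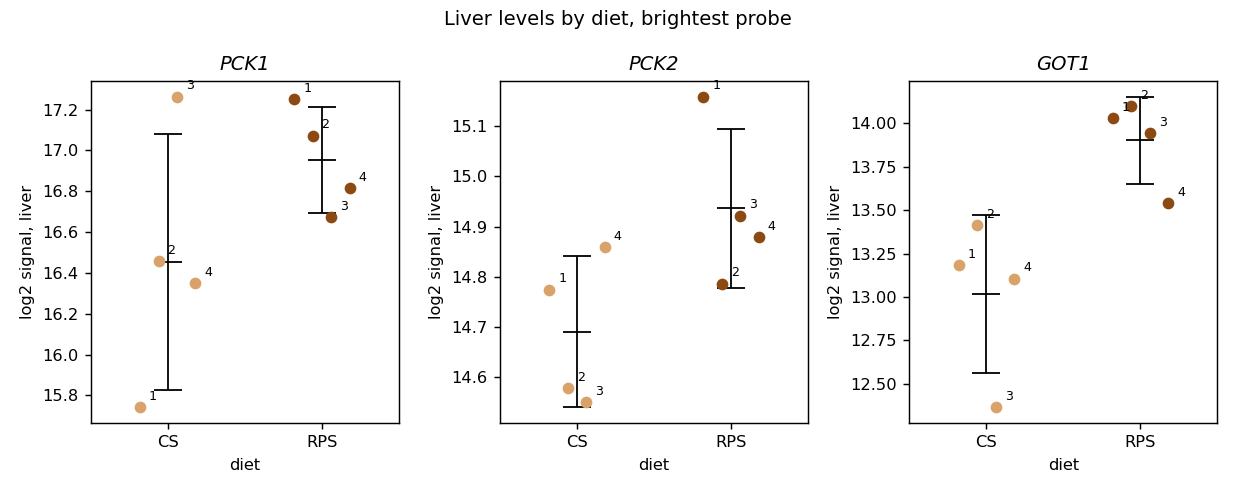
Log2 signal (y axis) of the brightest probe of PCK1, PCK2 and GOT1 on the 8 liver arrays, by diet (x axis). Points are arrays with their replicate number, and bars are the mean ± SD of 4 arrays. PCK1 of CS replicate 3, at 17.26, lies above all RPS arrays, and GOT1 shows no overlap between diets.

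PC gave lower means with RPS, also short of the thresholds. Its brightest probe read 14.08, 14.83, 15.11 and 14.15 with CS and 14.05, 14.05, 14.12 and 14.44 with RPS. CS replicates 2 and 3 were the highest and the other 6 livers lay between 14.05 and 14.44. The difference was -0.37 ± 0.25 (95% confidence interval -0.96 to 0.21, adjusted p = 0.797, exact permutation p = 0.2), and all 3 probes were lower with RPS, by 0.30 to 0.44. Without CS replicate 4, probe A_72_P303224 was called.

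G6PC read 10.02, 10.40, 11.22 and 10.86 with CS and 10.65, 10.64, 10.32 and 10.39 with RPS. CS livers held both the lowest and the highest value. The difference was -0.13 ± 0.26 (95% confidence interval -0.73 to 0.47, adjusted p = 0.951, exact permutation p = 0.714). SLC2A2 read 10.74, 10.80, 10.31 and 10.81 with CS and 10.59, 10.81, 10.74 and 10.45 with RPS. Its difference was -0.02 ± 0.14, with an interval of -0.35 to 0.32, and was of the other sign with scaling to the 75th percentile.

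FBP1 depended on which probe was read. The brightest gave 16.19, 16.28, 16.99 and 16.54 with CS and 16.60, 16.18, 14.61 and 16.64 with RPS, a difference of -0.49 ± 0.46 (adjusted p = 0.850, exact permutation p = 0.486). The value of RPS replicate 3, 14.61, lay far below the rest. On that array the brightest probe read 0.32 below probe A_72_P441089, whereas it lay 0.99 to 1.57 above it on the other 15 arrays, and no spot was marked as an outlier. The other 2 probes differed by -0.10 and -0.22, and without RPS replicate 3 the brightest differed by -0.03.

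Among the remaining genes, SLC2A1 read 7.53, 7.28, 7.13 and 7.01 with CS and 7.80, 7.56, 7.43 and 7.41 with RPS. The 2 groups overlapped through CS replicate 1 alone. The difference was 0.31 ± 0.14 (95% confidence interval -0.02 to 0.65, adjusted p = 0.686, exact permutation p = 0.0857). SLC5A1 was lower with RPS at all 5 probes, by 0.23 to 0.51, and 2 of its probes were called without RPS replicate 2. The 0.23 came from probe A_72_P488671, which was well above background on 3 of 8 liver arrays. Between the 5 probes, r over the 8 liver arrays was 0.27 to 0.97. HK2 was above background in liver RPS replicate 2 alone, at 3.40, and between 0.88 and 0.95 elsewhere, so its difference of 0.62 (adjusted p = 0.850) rested on that array.

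Of the 87 other pathway genes, 1 was called higher with RPS in liver and 0 lower, where 3.3% of the 7059 genes were called in either direction. The gene was GOT1, the cytosolic aspartate aminotransferase, which interconverts aspartate and oxaloacetate and so feeds the substrate of PCK1. It read 13.18, 13.42, 12.37 and 13.11 with CS and 14.03, 14.10, 13.94 and 13.54 with RPS. All RPS livers lay above all CS livers. The difference was 0.88 ± 0.24, with an exact permutation p = 0.0286, the smallest that 4 against 4 can give, but an adjusted p of 0.455 in limma. All 4 GOT1 probes were called, with differences of 0.88 to 0.96. In colon the same probes differed by 0.20 to 0.32 and none was called, and the diet difference in colon minus that in liver was -0.56 ± 0.34 at the brightest probe (adjusted p = 0.999).

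**Figure D4:**
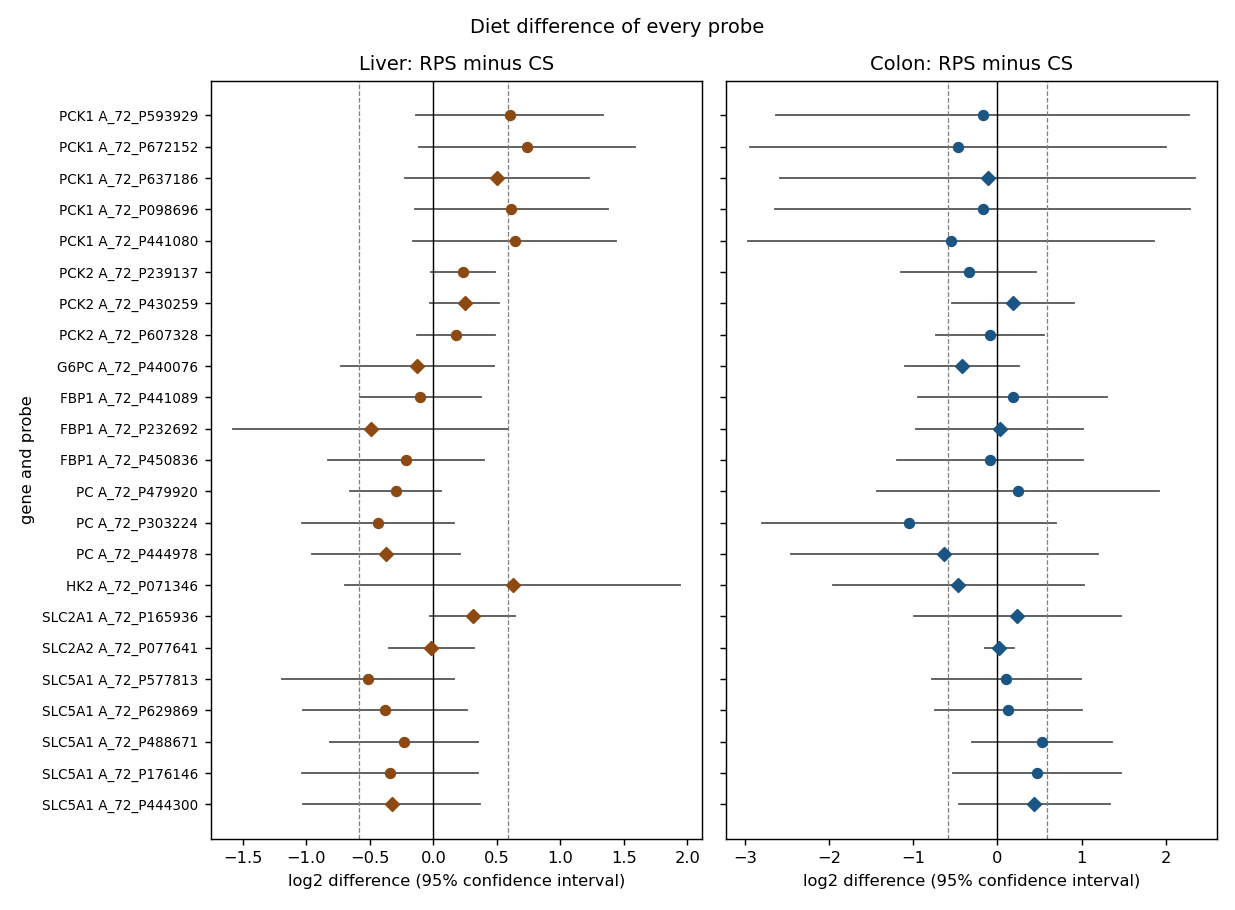
Log2 difference RPS minus CS (x axis) for each of the 23 probes (y axis) in liver (left) and colon (right). Diamonds are the brightest probe of a gene and circles the others, bars are 95% confidence intervals of the limma fit, and dashed lines mark a fold of 1.5. All 23 intervals include 0 in both tissues, and colonic PCK1 has the widest.

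In colon, 0 of the 23 probes were called, against 2.94% of all probes. None had an unadjusted p below 0.05 in limma (the lowest was 0.176) or was called by the methods' t-test. By adjusted p, 0 of 23 and 0% of all probes passed. Groups overlapped for each of the 23, while for 6.52% of all probes they did not. The median difference was -0.09, against 0.01 over all probes.

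Colonic PCK1 varied between pigs far more than between diets. Its brightest probe read 15.57, 12.72, 11.30 and 14.95 with CS and 14.74, 12.36, 14.32 and 12.65 with RPS. Each diet held 2 pigs above 14 and 2 pigs below 13. From the lowest to the highest pig the signal changed 19.3-fold in colon and 2.87-fold in liver. The difference between diets was -0.12 ± 1.05, with a 95% confidence interval of -2.58 to 2.35 (adjusted p = 0.999, exact permutation p = 0.886), so that a difference of several fold in either direction was not detectable with 4 pigs per diet. Its sign turned when CS replicate 1, CS replicate 4, RPS replicate 2 or RPS replicate 4 was left out.

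This spread was shared by all 5 PCK1 probes, which correlated with r of 0.98 to 1.00 over the 8 colon arrays. The SD within diets was 1.63 for the brightest probe, larger than for 99.2% of the 26509 probes that were above background on all 8 colon arrays, whose median SD was 0.36. In liver it was 0.48, larger than for 85.6% of 24978 probes. Colonic PC had the next largest SD, 1.21, above 97.3% of probes.

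Probes that varied over the 8 colon arrays much as PCK1 did, among 11141 with a symbol, included those of GLT8D1, a glycosyltransferase (r = 0.98), and of the lysosomal membrane protein SCARB2 (r = 0.96). GLT8D1 ranged over only 6.77 to 7.11 and SCARB2 over 10.78 to 11.49. These likenesses were looked for after the PCK1 values were seen, and r is given as a description, since all probes were read on the same 8 arrays.

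**Figure D5:**
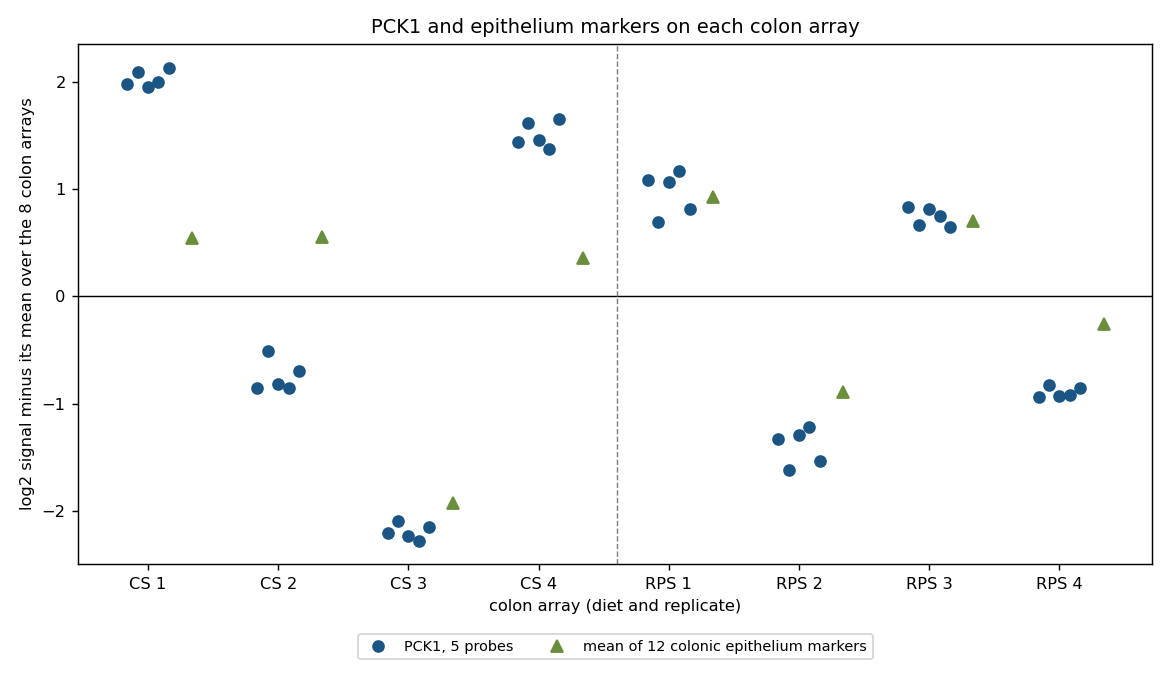
Log2 signal minus its mean over the 8 colon arrays (y axis) for the 5 PCK1 probes (circles) and the mean of 12 colonic epithelium markers (triangles), on each colon array (x axis). PCK1 is above its mean on CS 1, CS 4, RPS 1 and RPS 3 and below on the other 4, and the epithelium markers lie on the same side of their mean as PCK1 on 7 of 8 arrays, all but CS 2.

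Epithelial markers also differed between colon samples. The mean log2 level of the 12 epithelium markers was 13.74, 13.76, 11.28 and 13.56 with CS and 14.13, 12.31, 13.90 and 12.94 with RPS. CS replicate 3 and RPS replicate 2 were lowest, and they were also the lowest of their diet for PCK1. On 7 of 8 arrays the marker mean and PCK1 lay on the same side of their means over the colon arrays, and the exception was CS replicate 2, with the highest epithelium level of its diet and a PCK1 of 12.72. The mean of 4 leukocyte markers was 9.44 to 11.41 with CS and 8.81 to 11.03 with RPS. Its highest values, 11.41 and 11.03, were those of CS replicate 3 and RPS replicate 2, the arrays lowest for epithelium. The mean of 2 smooth muscle markers was 10.95 to 11.37 with CS and 10.67 to 10.93 with RPS, and that of 10 hepatocyte markers 4.59 to 5.17 and 4.65 to 5.42. The part of cell content in the PCK1 values was not tested.

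The other glucose-producing genes of the colon showed no diet difference past the thresholds. PC read 12.21, 11.86, 9.82 and 13.00 with CS and 11.69, 10.45, 12.22 and 10.01 with RPS. With CS, replicate 3 was again the lowest. With RPS the lowest was replicate 4, at 10.01, and replicate 2, lowest of its diet for epithelium markers, read 10.45. The difference was -0.63 ± 0.78 (95% confidence interval -2.45 to 1.19, adjusted p = 0.984, exact permutation p = 0.543), and the 3 probes ran from -1.05 to 0.24. The value of 0.24 came from probe A_72_P479920, which was well above background on 5 of 8 colon arrays. FBP1 read 11.99, 11.93, 10.80 and 12.19 with CS and 11.78, 10.90, 11.81 and 12.53 with RPS, with the low value of each diet in the array with the lowest epithelium markers and a difference of 0.03 ± 0.42. PCK2 differed by 0.19 ± 0.31 at its brightest probe and by -0.34 and -0.09 at the others. G6PC differed by -0.42 ± 0.29 (adjusted p = 0.982, exact permutation p = 0.2), with 3 of 4 CS arrays and 0 of 4 RPS arrays above background. Over all spots of the array, too, the share above background was higher in colon CS (68.8% to 72.2%) than in colon RPS (64.9% to 68.1%).

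Glucose transport in the colon was likewise spread over pigs. SLC5A1 read 11.16, 11.08, 9.96 and 10.80 with CS and 11.39, 10.57, 10.84 and 11.96 with RPS. The lowest pig was CS replicate 3 and the highest RPS replicate 4. The difference was 0.44 ± 0.38 (95% confidence interval -0.46 to 1.33, adjusted p = 0.982, exact permutation p = 0.343), and all 5 probes were higher with RPS, by 0.11 to 0.53. SLC2A1 read 10.16, 10.05, 8.36 and 9.61 with CS and 10.57, 8.69, 10.01 and 9.85 with RPS, a difference of 0.24 ± 0.52. HK2 read 3.55, 4.03, 3.97 and 3.55 with CS, all above background, and 2.73, 2.93, 2.27 and 5.32 with RPS, where the last was the only one above background. As said for G6PC, fewer spots of any gene were above background on the colon RPS arrays. The HK2 difference of -0.46 ± 0.64 (adjusted p = 0.988) became -1.14 without RPS replicate 4 (adjusted p = 0.547) and was then called. Without CS replicate 3, PC probe A_72_P303224 was called, and the same probe was called when CS replicate 3 and RPS replicate 2 were both left out.

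Of the 87 other pathway genes, 0 were called higher with RPS in colon and 2 lower, where 2.56% of the 7059 genes were called in either direction. PYGM, the muscle glycogen phosphorylase, fell by 1.57 on the log2 scale (SE 0.62, adjusted p = 0.900, exact permutation p = 0.0571), with 5.19, 5.34, 4.85 and 4.53 in CS and 3.17, 4.61, 4.19 and 1.67 in RPS, the first and last of these not above background. AKR1B1, the aldose reductase that reduces glucose to sorbitol, fell by 0.77 (SE 0.33, adjusted p = 0.918, exact permutation p = 0.0857), with 9.19, 9.41, 9.88 and 8.78 in CS and 8.61, 9.26, 8.08 and 8.23 in RPS. The second probe of each gene was also lower, by 0.93 and 0.80, and was not called. The call of PYGM was lost without CS replicate 1, 2 or 3 or RPS replicate 1, and that of AKR1B1 without CS replicate 1, 2 or 3 or RPS replicate 1, 3 or 4.

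The diet difference itself was compared between tissues with all 16 arrays. Of the 23 probes, 0 were called, against 3.76% of all probes, and the lowest unadjusted p was 0.109. For PCK1 the colon difference minus the liver difference was -0.61 ± 1.19 (adjusted p = 0.999), and for SLC5A1, higher with RPS in colon and lower in liver at all 5 probes, it was 0.78 ± 0.51 (adjusted p = 0.999). With CS replicate 3 of colon left out, 2 probes were called (PCK1 A_72_P441080 and PC A_72_P303224), and with RPS replicate 4 of colon left out, 2 others were (PCK2 A_72_P239137 and HK2).

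Genes most like the 2 leading members were looked for among probes with a symbol. Over the 8 liver arrays, the genes closest to PCK1 among 10805 probes were FKBP3, a peptidyl-prolyl isomerase (r = 0.96), FITM1, a lipid droplet protein (r = 0.94), and UBE2D1, a ubiquitin-conjugating enzyme (r = 0.93). FKBP3 ranged over only 11.18 to 11.44. Over the 8 colon arrays, the genes closest to SLC5A1 among 11141 probes were TM9SF3, a membrane protein of the Golgi (r = 0.99), and NDUFA9 and NDUFB9, subunits of complex I of the respiratory chain (r = 0.99 for both). These ranged over 12.40 to 13.31, 13.01 to 14.47 and 13.93 to 15.12. Each r is among the highest of 10805 or 11141 correlations over only 8 arrays and is given as a description. Whether such values go beyond chance was not tested.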

How the data were processed

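The authors hybridized liver and colon RNA to one-colour arrays and deposited, per the file headers, intensity values written by Agilent Feature Extraction 10.7, background-subtracted but not normalized between arrays. Their deposited log2 values, quantile normalized by the authors, served as an alternative. Here, control spots were left out, outlier spots set to missing, and log2 signals quantile normalized, with 8 arrays per tissue for diet and all 16 for tissue. Group differences were fitted with limma 3.58.1 in R 4.3.3 (with data.table version 1.17.8 and matplotlib version 3.10.9), with Benjamini-Hochberg adjustment over 43603 probes and no filter on signal, as set out in the report. The procedure was checked on simulated data. Pathway genes were named by lowest p or largest difference among those called, from 1 brightest probe each. Symbols came from the files and RefSeq. The files name no genome build. The members and lists were chosen with earlier results of these data known. Lists of hepatocyte, colonic epithelium, smooth muscle and leukocyte genes served as markers. Alternatives were another scaling, background correction, filter, test, fit, fold threshold or replicate block, and each array left out. A gene that the naming rule picked is not reported here.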

Additional observations from a re-analysis of the deposited data

Results flagged for a closer look

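In 4 of 36 groups of 4 arrays (9 genes in 4 groups), 1 array stood apart from the other 3 by more of the group's range than the critical value of Dixon's test for 4 samples, and chance alone gives this in about 1 of 20 groups. HK2 of liver RPS replicate 2 was at 3.40, the 1 liver array on which HK2 was above background. SLC2A2 of liver CS replicate 3 was at 10.3, below the other livers, and the same array was the highest of its group for PCK1, G6PC, FBP1 and PC. G6PC of colon RPS replicate 2 was at 1.86 and SLC2A2 of colon RPS replicate 1 was at 0.831, both not above background.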

How the results depend on the processing

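For diet, 0 of 23 probes were called under every alternative that kept all arrays. Leaving out 1 array gave 0 to 5 in liver, 0 to 1 in colon and 0 to 2 for diet by tissue, and leaving out colon CS replicate 3 and RPS replicate 2 together (chosen after seeing the data) gave 1 in colon. For colon against liver, 22 or 23 were called throughout, and the probe lost with normexp and within the RPS diet was HK2. With normexp the tissue differences of the dim genes shrank, to -4.27 for G6PC, -4.72 for SLC2A2 and 0.23 for HK2. Differences that changed sign had none of them been called. With 1 array left out they ranged in liver over -0.14 to 0.0495 (SLC2A2) and -0.33 to 0.0739 (G6PC), in colon over -0.89 to 0.53 (PCK1), -0.0296 to 0.38 (PCK2), -0.28 to 0.31 (FBP1) and -0.16 to 0.60 (SLC2A1), and between tissues over -1.43 to 0.0562 (PCK1), -0.28 to 0.15 (PCK2), -0.97 to 0.15 (PC), -0.47 to 0.31 (SLC2A1) and -0.0229 to 0.16 (SLC2A2). SLC2A2 in liver became 0.0128 with the 75th percentile. With normexp, SLC2A2 in colon became -0.0472, and between tissues G6PC became 0.019, SLC2A1 0.0672 and SLC2A2 -0.0425. Without the 2 colon arrays, G6PC between tissues became 0.0274, against -0.4765 to -0.0126 with 1 array out. GOT1 stayed called at 0.67 to 1.02 apart from a fold threshold of 2. PYGM was lost with normexp (-0.31) and the methods' t-test, and AKR1B1 with that test, the block and the higher fold.

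Over all probes, calls ranged from 220 to 2029 in liver (1554 in the report's fit), 172 to 2635 in colon (1283) and 296 to 2802 between tissues' diet effects (1638), lowest with normexp. For diet in colon, 55.2% of calls were higher with RPS, and 69% with the 75th percentile. Same-numbered samples correlated with r of -0.16 to 0.11 in liver and -0.51 to 0.55 in colon, so numbers were not taken as pairs for diet, and with the replicate block 0 probes were called in either tissue. Between liver and colon, r was 0.16 to 0.33 in CS but -0.08 to 0.07 in RPS, so numbers were not taken as pairs there either, though shared pigs could not be told from the labels. With diet and number as a block over both tissues, 23 probes were called for colon against liver (highest adjusted p of the 9 brightest probes 0.00894) and 0 for diet by tissue. Dim spots limit HK2 in both tissues, G6PC, SLC2A2 and PC probe A_72_P479920 in colon, and SLC5A1 probe A_72_P488671 in liver.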
